A study of Mus musculus with 45 samples.

Results

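A group of 9 genes of acetylcholine signalling was followed through RNA-Seq data of the mouse brain: Chat, Slc5a7, Slc18a3 and Ache, which make, recycle, package and break down acetylcholine, and Chrm1 to Chrm5, which encode the 5 muscarinic receptors. They were chosen by name and are 9 of the 18135 genes in the deposited table, and all 9 had a row there. The 45 samples came from male C57BL/6J mice at 13 weeks of age, with 5 WT, 5 Shank3-heterozygous (HT) and 5 Shank3-homozygous (HM) samples in each of the prefrontal cortex (called cortex here), hippocampus and striatum. The HT and HM mice lack an internal run of Shank3 exons in the germline on 1 or both alleles; the labels call the HM mice knock-out. No Cre or transgene is named, and the labels do not say which samples of different regions came from the same mouse. Values are normalized counts, made by the authors from Salmon estimates with DESeq2, and the sequencing depth behind them is unknown. Their sums were 26118607 to 29568983 per sample.

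Choline acetyltransferase (Chat) makes acetylcholine from choline and acetyl-CoA, the vesicular acetylcholine transporter (Slc18a3) loads it into synaptic vesicles, acetylcholinesterase (Ache) splits it in the synaptic cleft, and the high-affinity choline transporter (Slc5a7) brings the choline back into the terminal. In the striatum acetylcholine comes mainly from local interneurons, which are few in number and large, whereas the cortex and hippocampus receive it mostly through axons of basal forebrain neurons whose cell bodies lie outside these regions. The muscarinic receptors are G-protein-coupled: the products of Chrm1, Chrm3 and Chrm5 act mainly through Gq and phospholipase C, and those of Chrm2 and Chrm4 mainly through Gi, which lowers cyclic AMP. In bulk tissue, fewer cells of a type and less RNA per cell cannot be told apart.

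Slc18a3 (ENSMUSG00000100241, GRCm38 chromosome 14, 32462438 to 32464850, minus strand) is a gene of a single exon that lies inside an intron of 4 of the 8 annotated Chat transcripts (ENSMUSG00000021919, 32408203 to 32465989, minus strand), an arrangement known as the cholinergic gene locus. The exons of Slc18a3 shared 0 of their 2413 bases with the exons of Chat, and the starts of both genes lie 1139 bases apart. Slc5a7 (ENSMUSG00000023945) is on chromosome 17, 54273590 to 54299034, minus strand. The 250 bases upstream of the RefSeq start (GRCm38.p6, read 5′ to 3′ on the minus strand) of these 3 genes are shown because they are the genes with the steepest regional differences. They lie at chr14:32465910-32466159 for Chat, chr14:32464851-32465100 for Slc18a3 and chr17:54299035-54299284 for Slc5a7. Capitals mark the motifs found on either strand, which were CACGTG in Chat and GGGCGG, written as its complement, in Slc18a3:
Chat: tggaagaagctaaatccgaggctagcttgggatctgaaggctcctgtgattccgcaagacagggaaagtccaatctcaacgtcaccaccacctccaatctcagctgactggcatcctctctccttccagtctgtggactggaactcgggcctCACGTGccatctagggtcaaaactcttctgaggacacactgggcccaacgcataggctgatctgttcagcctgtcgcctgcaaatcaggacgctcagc
Slc18a3: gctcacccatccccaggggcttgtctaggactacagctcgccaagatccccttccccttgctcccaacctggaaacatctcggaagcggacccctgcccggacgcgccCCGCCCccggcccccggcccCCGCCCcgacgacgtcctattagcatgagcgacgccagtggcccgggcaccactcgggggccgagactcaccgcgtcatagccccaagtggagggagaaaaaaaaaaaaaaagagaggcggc
Slc5a7: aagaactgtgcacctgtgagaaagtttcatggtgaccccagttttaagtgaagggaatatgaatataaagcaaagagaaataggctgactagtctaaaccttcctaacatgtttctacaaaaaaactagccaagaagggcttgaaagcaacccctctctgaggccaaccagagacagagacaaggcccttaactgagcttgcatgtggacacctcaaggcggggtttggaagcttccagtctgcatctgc
CACGTG, the E-box of basic helix-loop-helix factors, was present in 6.05% of 27025 promoter windows of the same length, and GGGCGG, the GC box, in 32.9%. The other 4 motifs were searched on both strands and had no match in these 3 windows: TAATTA (4.9% of all windows), TGACGTCA (1.62%), CAGCACC (5.7%) and GGACAG (18.7%). The windows differed in CpG dinucleotides, with 21 in Slc18a3, 8 in Chat and 1 in Slc5a7, where the median of all windows was 6. The window of Slc18a3 had a GC content of 66%, that of Chat 54.8% and that of Slc5a7 45.6%.

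The targeted gene was checked first. Shank3 had 12317 ± 606 normalized counts (SD, n = 5) in the WT striatum, 8725 ± 581 in HT and 5735 ± 667 in HM mice, and in the cortex and hippocampus too the 5 HT and the 5 HM samples each lay below the 5 WT samples. A single library stood apart from its label. Cortex HM replicate 2 held 54536 normalized counts summed over 12 genes of striatal spiny projection neurons, against 6167 to 8439 in the other 14 cortical samples and 196479 to 265348 in the striatum, and its Shank3 value of 4446 was above those of the other 4 cortical HM samples (3689 to 4171). The HM cortex differences of Chat, Slc5a7, Slc18a3, Ache and Chrm3 are given with and without this library. It also enters the spread used in the other cortical tests. Striatum HT replicate 5 held 71076 normalized counts summed over 10 choroid plexus genes, against 493 to 1642 in the other striatal samples. In the hippocampus this sum varied widely, from 1425 in HT replicate 3 to 127323 in WT replicate 4, with medians of 36637 in WT, 2163 in HT and 45095 in HM mice. Cortex HT replicate 3 held 1197, against 71.7 to 765 in the other cortical samples.

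The first comparison asked where in the WT brain these genes are expressed. In WT mice the 3 genes that define a cholinergic neuron, Chat, Slc5a7 and Slc18a3, were striatal genes. Chrm4 was also highest in the striatum, Chrm2 and Chrm3 were highest in the cortex, Chrm5 was highest in the hippocampus, and Chrm1 was expressed at similar levels in all 3 regions. Groups were tested with limma on log2(normalized count + 1), with p values adjusted over all genes by the Benjamini-Hochberg method and called under 0.05. Fold changes are on that scale, which understates changes of low values. Between striatum and cortex 6 of the 9 genes were higher in the striatum and 2 were lower, while 59.3% of all tested genes were called, 30% higher and 29.3% lower. Between striatum and hippocampus 6 were higher and 2 lower, where 56.1% of all genes were called (27.8% higher, 28.3% lower). Between cortex and hippocampus 5 were higher and 1 lower, where 46.6% of all genes were called (23.3% higher, 23.3% lower). The 5 WT samples of one region lay wholly above or below those of the other for 7, 8 and 6 of the 9 genes in these comparisons, against 46.3%, 38.5% and 32% of all genes. Regional differences were thus common among all genes. Chat in the hippocampus, Slc18a3 in the cortex and hippocampus, and Chrm5 in the cortex had WT means under the required mean of 10 and entered these tests through the regions where they were higher, so that the counts over the 9 genes are a description only. The direction and size of each gene follow.

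**Figure D1:**
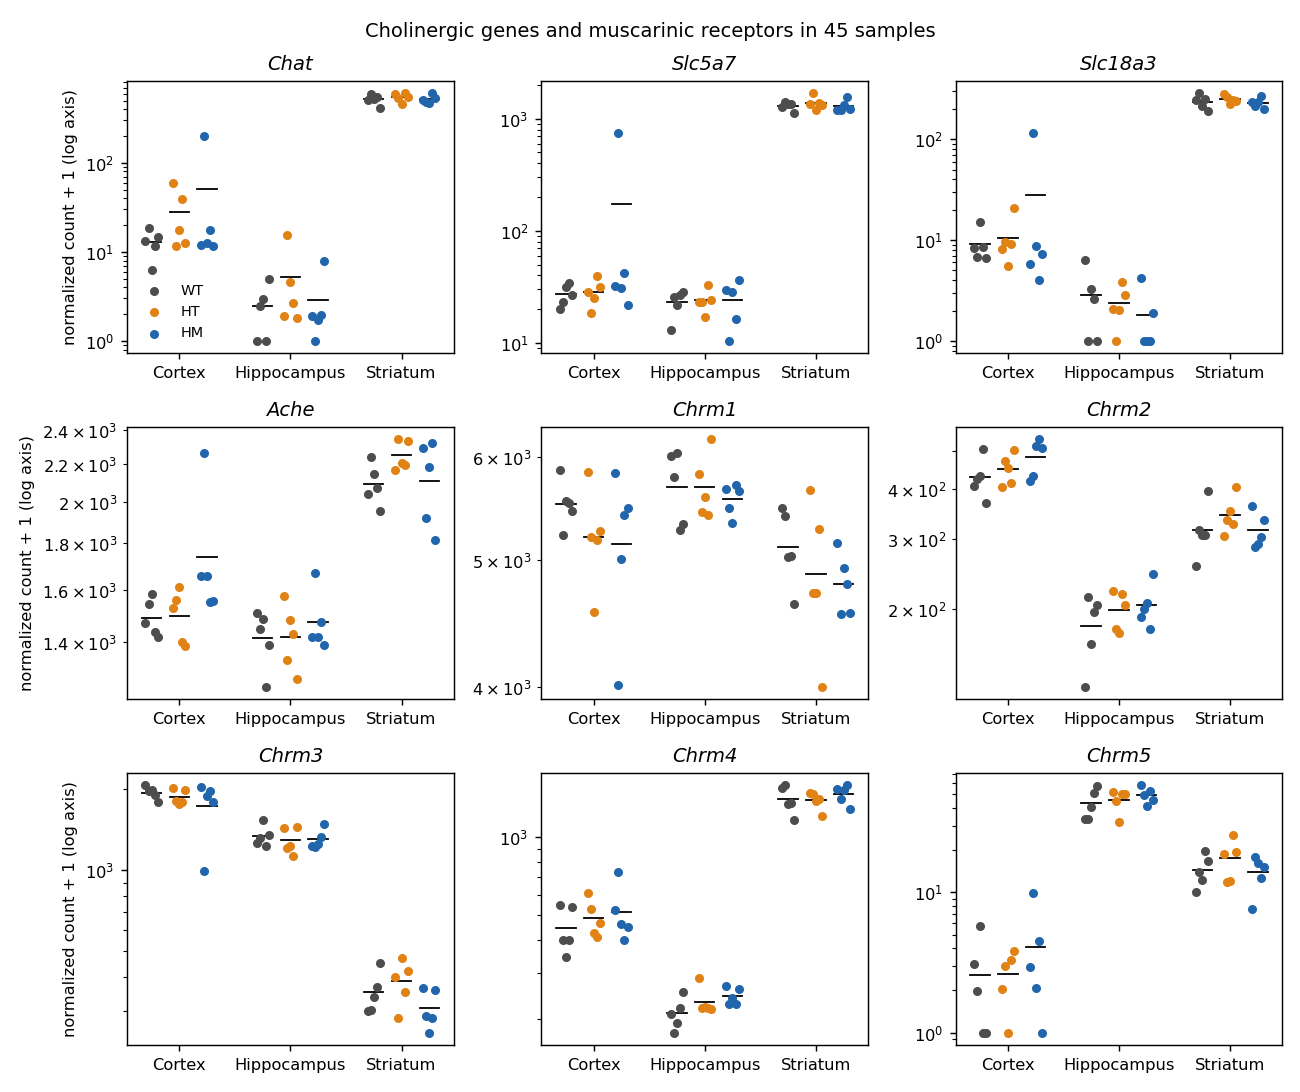
Normalized counts plus 1 (vertical log axis, with its own range in each panel) of the 9 genes in the 45 samples, grouped by region and colored by genotype (WT gray, HT orange, HM blue). Points are samples and lines are group means. The 15 striatal samples of Chat, at 409.8 to 601, lie above all cortical samples, of which the highest is cortex HM replicate 2 at 200.1.

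In the WT striatum Chat was at 501, 596, 526, 546 and 409.8 normalized counts in replicates 1 to 5, in the WT cortex at 12.2, 17.3, 5.19, 10.7 and 13.5, and in the WT hippocampus at 0, 1.49, 1.96, 0 and 3.97. The 3 groups did not overlap. Chat was 42.6-fold higher in the striatum than in the cortex (log2 difference 5.41 ± 0.58, SE; limma adjusted p = 9.94e-11). The comparisons with the hippocampus, where the mean was under 10, are given by their values only.

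Slc5a7 was at 1292 ± 104 (SD, n = 5) normalized counts in the WT striatum, 26.2 ± 5.86 in the cortex and 22.1 ± 6.12 in the hippocampus. Its striatal level was 48.4-fold above the cortical one (log2 difference 5.60 ± 0.47, SE; limma adjusted p = 7.34e-14). Slc5a7 did not pass the test between cortex and hippocampus (log2 difference 0.25, 95% interval -0.69 to 1.20; adjusted p = 0.685), where all 30 samples but cortex HM replicate 2 lay between 9.44 and 41.1. Slc18a3 was at 245, 283, 209.7, 248 and 187 in the WT striatum, at 5.58 to 14.1 in the cortex and at 0 to 5.27 in the hippocampal samples. The 3 groups did not overlap. The means of the cortex and hippocampus were under 10, so no test between regions is given for Slc18a3.

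Levels of different genes can be compared only per length of exon sequence (GENCODE M21; the annotation behind the deposited values is not given in the sources used here). Per kb, the WT striatum held 229 ± 18.3 normalized counts of Slc5a7, 109.7 ± 14.6 of Chat and 97.2 ± 15.4 of Slc18a3. The means of Chat and Slc18a3, the neighbors of the cholinergic locus, differed by less than the SD of either, and Slc5a7 was higher than both. Chat and Slc18a3 were measured in the same samples, and their difference within samples was not tested. Ache was at 452 ± 23.5 per kb in the same samples, the highest of the 4. In the cortex, where the other 3 were at 2.51 to 4.63 per kb, Ache was still at 322 ± 14.98.

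Ache, whose enzyme is also made by cells that do not release acetylcholine, differed little between regions. It was at 1953 to 2242 normalized counts in the WT striatum, 1418 to 1580 in the cortex and 1249 to 1506 in the hippocampus. The striatal samples lay above those of both other regions, by 1.40-fold over the cortex (log2 difference 0.49 ± 0.08, SE; limma adjusted p = 5.19e-07) and 1.48-fold over the hippocampus (0.56 ± 0.08; adjusted p = 2.87e-08). Cortex and hippocampus overlapped and did not pass the test (0.08, 95% interval -0.08 to 0.23).

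Among the Gq-coupled receptors, Chrm1 was at 4629 to 5489 normalized counts in the WT striatum, 5228 to 5866 in the cortex and 5271 to 6047 in the hippocampus, with overlap between all 3. It passed none of the 3 tests between regions in the fit used here. The largest of its differences, between striatum and hippocampus, was -0.15 on the log2 scale (95% interval -0.30 to -0.00245; limma adjusted p = 0.0779), and without cortex HM replicate 2, which enters only the estimate of the spread, its adjusted p was 0.0406. With quantile normalization the difference was -0.21 and was called (adjusted p = 0.00562). The fit with a replicate block, described in the last section, called it as well. Chrm3 was at 1796 to 2074 in the WT cortex, 1227 to 1532 in the hippocampus and 299.8 to 450.2 in the striatum. The log2 difference was -2.48 ± 0.13 (SE) for striatum minus cortex (adjusted p = 1.40e-19) and -1.94 ± 0.13 for striatum minus hippocampus (adjusted p = 2.35e-16), and the cortex was 1.46-fold above the hippocampus (adjusted p = 0.000844). These groups did not overlap.

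Chrm5 was the rarest of the receptors per kb in the WT cortex and striatum. In the WT hippocampus it was at 26.4 ± 6.67 normalized counts per kb (SD, n = 5) and Chrm2 at 29.8 ± 5.89, a gap of the means smaller than either SD. Both were measured in the same samples, and their difference within samples was not tested. Chrm5 was at 32.5, 32.4, 39.6, 49.95 and 56.3 normalized counts in the WT hippocampus, at 9.04, 12.9, 11.2, 18.6 and 15.8 in the striatum, and at 2.09, 0.974, 4.80, 0 and 0 in the cortex. All 3 regions were separate from each other. The hippocampus was highest, with a log2 difference of -1.58 ± 0.43 (SE) for striatum minus hippocampus (limma adjusted p = 0.00162). The call between striatum and hippocampus was lost with a pseudocount of 0.1 (log2 difference -1.64; adjusted p = 0.0974). In the cortex Chrm5 fell below the required mean of 10, and no test with that region is given.

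Of the Gi-coupled receptors, Chrm4 was at 1162 to 1577 normalized counts in the WT striatum, 344 to 546 in the cortex and 176 to 252 in the hippocampus. It was 3.16-fold higher in the striatum than in the cortex (log2 difference 1.66 ± 0.13, SE; limma adjusted p = 5.46e-15) and 2.10-fold higher in the cortex than in the hippocampus (1.07 ± 0.13; adjusted p = 1.90e-09), without overlap. Chrm2, known as the autoreceptor of many cholinergic terminals, had the reverse order of striatum and cortex. It was at 369 to 504 in the WT cortex, 256 to 394 in the striatum and 127 to 214 in the hippocampus, with the cortex 2.39-fold above the hippocampus (adjusted p = 2.97e-12). Striatum minus cortex gave a log2 difference of -0.44 ± 0.12 (adjusted p = 0.00110), and 1 striatal sample reached into the cortical range.

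Per kb, the muscarinic receptors of the WT cortex were mostly Chrm1, which held 55.2% ± 1.64 (SD, n = 5) of the level summed over the 5 genes, followed by Chrm3 with 20.2% ± 1.28 and Chrm4 with 19.9% ± 3.21. In the WT hippocampus Chrm1 held 67.8% ± 2.59, Chrm3 16.5% ± 0.976 and Chrm4 11.3% ± 1.74. The striatum was different in its leading receptor. There Chrm4 held 51.5% ± 2.10, Chrm1 42.2% ± 0.735 and Chrm3 3.05% ± 0.798. The Gi-coupled pair, Chrm2 and Chrm4, together made up 54.3% ± 1.52 of the level in the striatum, 24.5% ± 2.71 in the cortex and 13.6% ± 1.96 in the hippocampus. The annotated model of Chrm4 (1440 bases) and that of Chrm5 (1599 bases) hold a single exon each, shorter than the 6053 to 6487 bases of the other 3 receptors, so that shares depend on these lengths.

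**Figure D2:**
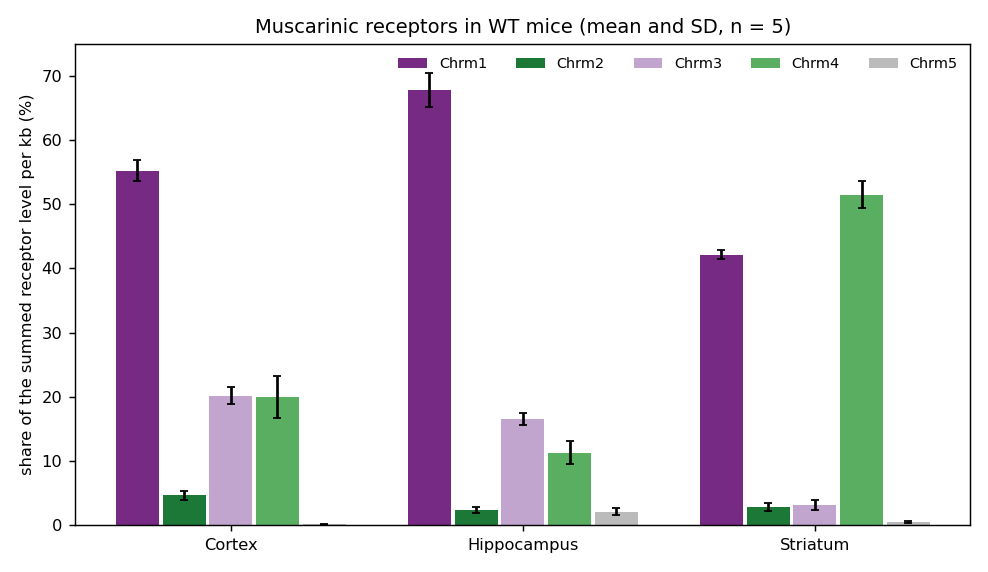
Share of each muscarinic receptor gene in the summed level per kb (vertical axis, percent) in WT mice of the 3 regions. Bars are means and error bars SD of 5 samples; Chrm1 is the tallest bar in the cortex (55.2%) and hippocampus (67.8%), and Chrm4 in the striatum (51.5%).

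The same question was put to the wider pathway through lists from general knowledge. Of 14 cholinergic neuron markers, the 3 acetylcholine genes included, 13 were tested between WT striatum and cortex, and 12 were higher in the striatum and 0 lower, where 30% of all genes were higher and 29.3% lower. Markers near 0 in the cortex, such as Lhx8 and Isl1, entered through the striatum, so this count is a description only. Of 26 signalling partners of muscarinic receptors, 12 were higher in the striatum and 13 lower (median log2 difference -0.09, against 0.01 over all genes). Higher were Rgs9, a striatal brake on G proteins (log2 difference 6.07), its partner Gnb5 (1.43) and Adcy5, the main striatal adenylyl cyclase (3.39). Lower were the subunits of the G-protein-gated potassium channel, Kcnj6 (-3.89), Kcnj3 (-2.60) and Kcnj9 (-2.22), and the phospholipase Plcb4 (-1.55). Of 9 nicotinic receptor subunits tested, 3 were higher and 4 lower. Of 10 genes of acetylcholine supply and breakdown, 6 were higher and 2 lower, among them Prima1, the membrane anchor of acetylcholinesterase, which was higher (4.30). The called shares of the signalling, nicotinic and supply lists are read against the 59.3% of all genes called in this comparison, and nothing particular to these lists is read from them. The named values carry limma adjusted p values under the threshold.

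The second comparison asked whether loss of Shank3 changed these genes. In the striatum, the region of the highest expression, HM and HT mice had Chat, Slc5a7 and Slc18a3 levels close to those of WT mice. Of the 9 genes, 0 were called by limma in any of the 6 comparisons with WT mice within a region, with 8 tested for cortex, 7 for hippocampus and 9 for striatum. Over all genes the called shares were 0% for HT and 0.0121% for HM mice in the cortex, 0.00603% for both in the hippocampus, and 0.00607% for HT and 0.182% for HM mice in the striatum. At an unadjusted p under 0.05 there were 2 member values, Ache in the HM cortex and Chrm4 in the HM hippocampus, where 907 of 16507 and 783 of 16571 genes did so. Members whose 5 mutant samples were separate from the 5 WT samples numbered 0 in each comparison. Of all genes, 0.63% (HT) and 0.8% (HM) were separate in cortex, 0.797% and 0.736% in hippocampus, and 0.971% and 1.86% in striatum. The smallest adjusted p over the members was 0.766. Shank3 itself was not called in the HT cortex by the same test (log2 difference -0.38, limma adjusted p = 0.288). The paper, with another test, lists it among the downregulated genes of all 6 groups. A gene without a call here can thus still differ.

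Chat was at 587, 534, 455, 601 and 553 normalized counts in the striatum of HT mice and at 506, 481, 471, 600.7 and 533 in HM mice. Both ranges lay within or just above the WT range of 409.8 to 596. The log2 difference of HM from WT mice was 0.01 (95% interval -0.20 to 0.22) and that of HT mice 0.09 (-0.13 to 0.30). In folds the HM estimate was 1.01.

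Slc5a7 was at 1268, 1392, 1341, 1336 and 1125 in the WT striatum, at 1361, 1678, 1195, 1389 and 1312 in HT mice and at 1186, 1193, 1324, 1548 and 1216 in HM mice. The 3 groups overlapped broadly. HM and WT mice differed by -0.00245 on the log2 scale (95% interval -0.19 to 0.19). Slc18a3 was at 276, 261, 223, 242 and 236 in HT and at 229.7, 212, 230.3, 264 and 199.9 in HM mice, and its HM difference was -0.04 (-0.27 to 0.20). For Ache the HM difference was 0.01 (-0.13 to 0.14) and the HT difference 0.11 (-0.03 to 0.25).

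The striatal receptors had 0 calls as well. HM mice differed from WT mice by -0.09 (95% interval -0.25 to 0.07) in Chrm1, 0.00382 (-0.22 to 0.23) in Chrm2, -0.19 (-0.49 to 0.12) in Chrm3, 0.07 (-0.11 to 0.24) in Chrm4 and -0.08 (-0.72 to 0.56) in Chrm5. The intervals of Chrm1, Chrm2 and Chrm4 exclude changes of 0.3 on this scale in either direction, whereas those of Chrm3 and Chrm5 do not. The Gi-coupled pair made up 54.3% ± 1.52 (SD, n = 5) of the striatal receptor level per kb in WT, 55.3% ± 1.95 in HT and 57.1% ± 1.46 in HM mice. The share of Chrm1 was 42.2% ± 0.735 in WT, 40.8% ± 2.03 in HT and 39.8% ± 1.07 in HM mice. The gap between WT and HM mice was larger than the SD of either group for both shares. They are parts of the same total, so each moves against the other and they are not separate observations. These shares were not tested between genotypes.

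**Figure D3:**
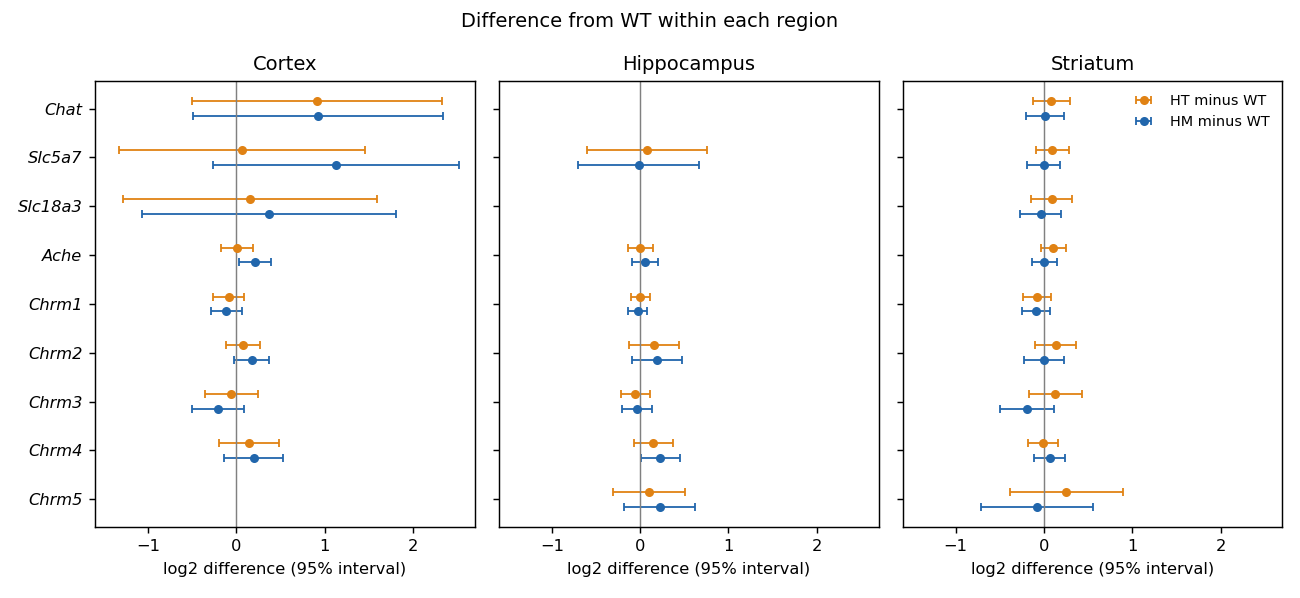
Log2 difference of HT (orange) and HM (blue) from WT mice on log2(normalized count + 1), horizontal axis, for each gene in each region. Points are limma estimates and bars 95% intervals, and genes with a mean under 10 in a region are left out. The intervals of the striatal acetylcholine genes span 0 and are narrow (Chat HM -0.20 to 0.22), and those of Chat, Slc5a7 and Slc18a3 in the cortex are wide.

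In the hippocampus, Chat and Slc18a3 were at 0 to 14.4 and 0 to 5.27 normalized counts and too low to test. Chrm4 was at 207, 176, 192, 219 and 252 in WT mice and at 267, 227, 240.2, 227 and 258 in HM mice. HM values were higher on average but overlapped with WT values (log2 difference 0.23 ± 0.11, SE; unadjusted p = 0.0459, limma adjusted p = 0.920). The other 6 tested genes had HM differences of -0.03 to 0.22 on the log2 scale. In HT mice the differences were -0.05 to 0.15.

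In the cortex, the HM means rested on 1 library. Chat was at 12.2, 17.3, 5.19, 10.7 and 13.5 in WT mice, at 59.0, 10.6, 16.7, 37.8 and 11.6 in HT mice and at 10.99, 200.1, 11.5, 16.7 and 10.6 in HM mice. HM replicate 2 was far above the other samples, and HT replicates 1 and 4 were next. The log2 difference of HM from WT mice was 0.92 (95% interval -0.50 to 2.34) with HM replicate 2 and 0.14 without it. For Slc5a7 it was 1.13 (-0.27 to 2.53) and 0.21, and for Slc18a3 0.37 (-1.07 to 1.81) and -0.48, none past the threshold. Slc18a3 reached the mean of 10 in the cortex only through this library, since its mean over the other 14 samples was 7.85. In HT mice the difference of Chat from WT mice was 0.91 (95% interval -0.50 to 2.33), on a spread that HM replicate 2 also enters.

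The higher Chat of HT replicates 1 and 4 had no counterpart in its locus neighbor or in the choline transporter. Slc18a3 was at 7.13 and 8.18 in these samples and Slc5a7 at 27.7 and 38.5, within the range of the other cortical samples other than HM replicate 2. Ache in the cortex was at 1469, 1541, 1580, 1435 and 1418 in WT mice and at 1657, 2265, 1655, 1548 and 1553 in HM mice. Its HM difference was 0.21 (95% interval 0.03 to 0.39; unadjusted p = 0.0272, limma adjusted p = 0.878), and 0.11 without HM replicate 2. Chrm3 was lowest in the same library, at 994 against 1761 to 2074 in the other 14, and its HM difference moved from -0.21 to -0.02 without it.

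Cortex HM replicate 2 was high in genes that are enriched in the striatum, the acetylcholine genes among them. For genes at least 8 times higher in the WT striatum than in the WT cortex and at 100 or more normalized counts there, each sample was placed as a percent of the way from the mean of the other 14 cortical samples to the WT striatal mean. Over the 145 such genes the median of HM replicate 2 was 21.6% (quartiles 13.3% and 37.8%). Slc5a7 was at 56.1%, Slc18a3 at 47.0% and Chat at 36.6%, and 16, 24 and 40 of the 145 genes, each itself included, were at least as far, with Chat inside the quartiles. In the other 14 samples the medians were -2.40% to -1.43%. The baseline of each of these holds HM replicate 2, which raises it, so values below 0 are not read as a lower level. The markers of striatal spiny projection neurons, 11 genes, had a median of 17.5%, with Drd2 at 15.7%, Drd1 at 27.3% and Tac1, the highest, at 51.7%. The 8 genes listed for septum and pallidum summed to 2881 normalized counts in this library, against 1373 to 1951 in the other 14 cortical and 1545 to 2671 in the striatal samples. The 8 excitatory neuron markers of cortex and hippocampus summed to 121767 in it, against 180916 to 211576 in the other 14 cortical samples.

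Other striatum-enriched markers of cholinergic neurons moved with the 3 genes. Over the 10 markers that met the fold and level limits, the 3 genes included, the lowest was Tacr1, the substance P receptor, at 32.0%. Gbx2, Slc17a8, Ngfr and Zic4 did not meet these limits. With HM replicate 2, the log2 difference of HM from WT cortex was 0.37 for Slc17a8, 0.41 for Ngfr and -0.09 for Zic4. The highest was Lhx8, a transcription factor of cholinergic neuron development, at 110%, with 164 normalized counts against 0 to 3.88 in the other 14 cortical samples and 149 ± 18.4 (SD, n = 5) in the WT striatum. Isl1, its partner factor, was at 72.2% and Nkx2-1 at 62.1%. Lhx8 and Nkx2-1 are also markers of the septum and pallidum. Among the receptors, Chrm4 was at 734 against 344 to 610 in the other 14 samples, between the cortical and striatal ranges. Chrm1, at 4013, was below all 14 others, which were at 4565 to 5866, and below the WT striatal range. The part of other tissue in these values was not tested.

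**Figure D4:**
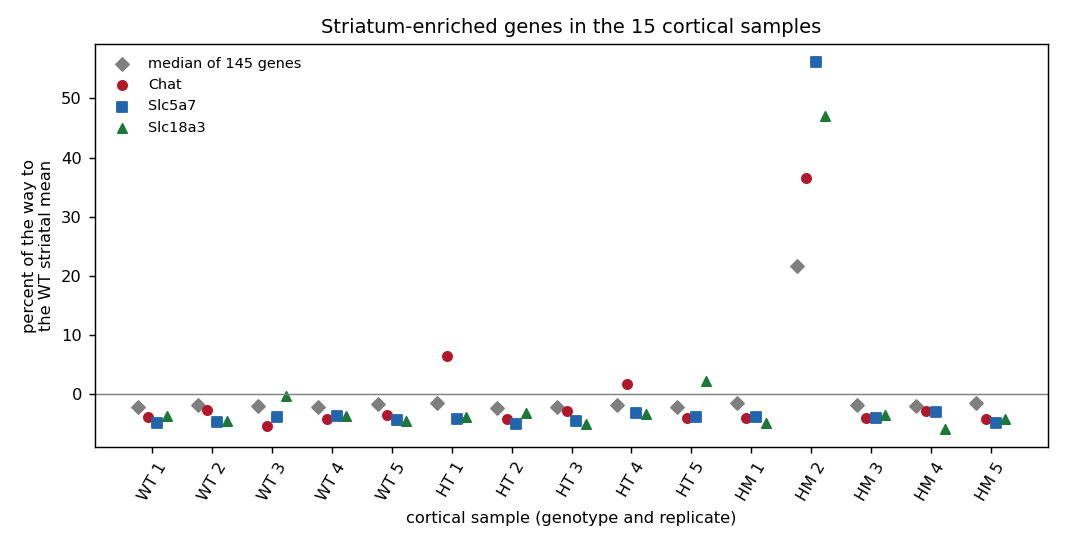
Percent of the way from the mean of the other cortical samples to the WT striatal mean (vertical axis) in each of the 15 cortical samples (horizontal axis). Gray diamonds are the median of 145 striatum-enriched genes, and the other symbols are Chat, Slc5a7 and Slc18a3. HM replicate 2 stands at 21.6% for the median and at 36.6% to 56.1% for the 3 genes. The medians of the other samples, whose baseline holds HM replicate 2, are just below 0.

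The effect of HM was also compared between regions in a fit of all 9 groups. Of the 9 genes in this fit, 0 were called by limma in the striatum against the cortex (0.0539% of all genes called), the striatum against the hippocampus (0.0718%) or the cortex against the hippocampus (0%), and 0 had an unadjusted p under 0.05, where 906, 897 and 743 of 16708 genes did so. Chat in the hippocampus, Slc18a3 in the cortex and hippocampus, and Chrm5 in the cortex were too low for these differences to be read. The largest difference was that of Slc5a7 between cortex and hippocampus, 1.15 on the log2 scale (95% interval -0.18 to 2.48), which was 0.23 without cortex HM replicate 2.

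Group means put the members in the same regional order in all genotypes for Chrm1 to Chrm5. Chrm3 ran from WT, HT and HM cortex through the hippocampal groups to the striatal ones, and within each region neighboring groups overlapped. For Chrm4 the 3 striatal groups came first (1379 to 1455 normalized counts), then the cortical (446 to 514) and the hippocampal ones (209 to 244), with gaps only between regions. For Chrm5 the hippocampal groups came first (42.1 to 48.5), and the striatal and cortical ranges touched only through cortex HM replicate 2, at 8.97 against a striatal minimum of 6.59. Chat, Slc5a7 and Slc18a3 had a gap between the striatal groups and all others, also with cortex HM replicate 2 included.

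The related lists were compared between genotypes as well. Of the 14 cholinergic neuron markers, all 14 were tested in the striatum and 0 were called in HM or HT mice (median log2 differences -0.04 and 0.09). In the HM cortex, 11 were tested and 0 were called, with a median of 0.88. There HM replicate 2 held 3682 normalized counts summed over the list, against 265 to 401 in the other 14 cortical samples. Of the 26 signalling partners 0 were called in any of the 6 comparisons. The only gene of these lists that was called was Chrnb4, a nicotinic receptor subunit, in the HM striatum. It was at 8.16, 17.3, 9.54, 13.2 and 10.2 normalized counts in WT, at 38.5, 17.8, 13.3, 21.8 and 40.7 in HT and at 49.4, 47.3, 43.3, 44.5 and 28.6 in HM mice. The HM samples lay above the WT samples (log2 difference 1.80 ± 0.30, SE; limma adjusted p = 0.0152), and without HM replicate 2 of the striatum the adjusted p was 0.0542. Chrna3, which lies beside it and forms receptors with it, had a difference of 0.94 ± 0.29 (adjusted p = 0.360).

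The third question was whether the acetylcholine genes vary together between samples of a region. In the 15 striatal samples, log2 values centered on the genotype mean gave Pearson's r = 0.73 for Chat and Slc18a3, 0.69 for Slc5a7 and Slc18a3 and 0.64 for Chat and Slc5a7 (Spearman's rho 0.59, 0.67 and 0.64). The unadjusted two-sided permutation p values were 0.00751, 0.00363 and 0.0156. None passed after adjustment over the 18 relations computed, 6 pairs in 3 regions, where the smallest adjusted p was 0.0562 for r and 0.124 for rho. Without the 2 samples farthest from the median of the first gene, r was 0.54, 0.69 and 0.40. Ache had an r of 0.35 with Chat, 0.55 with Slc5a7 and 0.60 with Slc18a3.

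In the hippocampus, and in the cortex without HM replicate 2, the same pairs had r of either sign. In the cortex over all 15 samples, r was 0.83 for Chat and Slc5a7, 0.60 for Chat and Slc18a3 and 0.87 for Slc5a7 and Slc18a3. Spearman's rho was 0.64, 0.16 and 0.61, and none passed after adjustment. HM replicate 2 lies apart from the rest, and without it the 3 pairs had r of -0.53 to 0.25 over 14 samples. In the hippocampus they had r of -0.39 to 0.40, at values of Chat and Slc18a3 near 0. Slc5a7 and Ache had an r of -0.62 in the hippocampus (permutation p = 0.0154, adjusted p = 0.0562), and -0.37 without the 2 farthest samples.

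**Figure D5:**
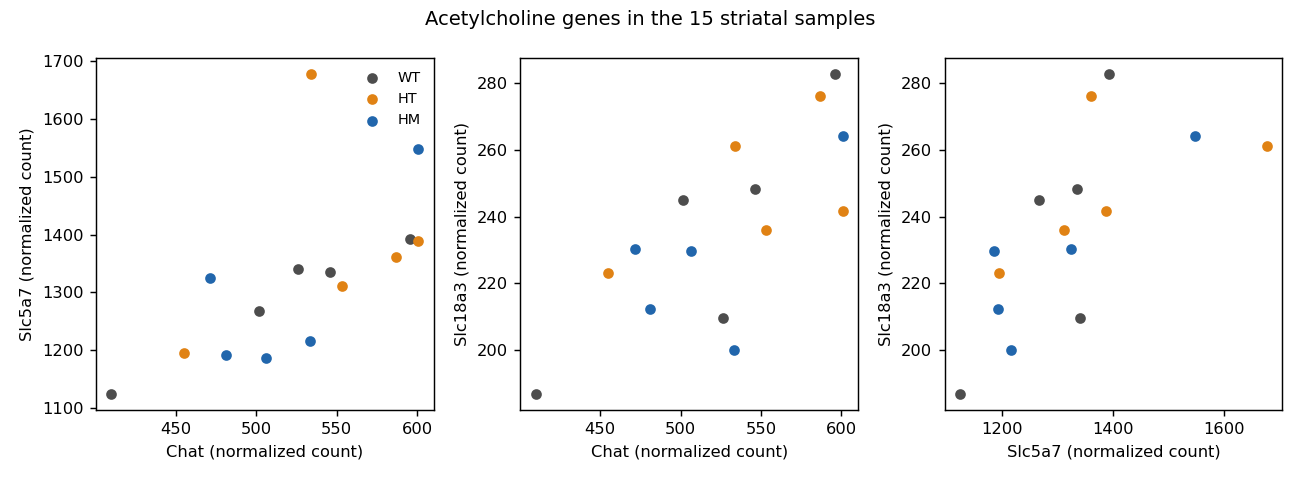
Normalized counts of Chat, Slc5a7 and Slc18a3 plotted against each other in the 15 striatal samples (points, colored by genotype: WT gray, HT orange, HM blue). WT replicate 5, at 409.8 for Chat, 1125 for Slc5a7 and 187 for Slc18a3, is the lowest sample in all 3 panels.

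Striatum WT replicate 5 was the lowest of the 15 in all 3 genes, and also in Chrm4, at 1162 against 1202 to 1579 in the others. Its sum over 12 spiny projection neuron markers was the lowest of the 15 (196479, against 203565 to 265348), and its sum over 8 excitatory neuron markers of cortex and hippocampus was the highest (85964, against 67294 to 85191). Its Chrm3 (450.2) and Chrm2 (394) were the highest of the WT striatal samples. The part of the dissection in these values was not tested.

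The 5 genes with the highest r with Chat over the 15 striatal samples, centered on genotype, were Meis2 (0.94), Cacng4 (0.93), C2cd2l (0.89), Mgat5b (0.87) and Auts2 (0.86). None is a marker of cholinergic neurons in the list used; Meis2, a homeobox factor, was at 15617 ± 1442 normalized counts in the WT striatum, far above Chat. Of the listed markers the closest was Slc17a8, the vesicular glutamate transporter that striatal cholinergic interneurons also carry (r = 0.84), followed by Tacr1 (0.78) and Slc10a4 (0.78). Drd2, a marker of spiny projection neurons, was as close (0.77). Ecel1 (0.64), Isl1 (0.51) and Lhx8 (0.36) had lower r. Nkx2-1 (0.20), Gbx2 (0.13) and Ngfr (0.05) had r near 0, and Zic4 went the other way (-0.47). These are descriptions over samples that share dissection and library preparation.

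Over all 45 samples, in which region sets most of the variation, the 2 genes most like Chrm3 were Gabbr2, a GABA-B receptor subunit (r = 0.99), and Faim2 (0.99). Those most like Chrm4 were Arpp21 (0.99) and Scn4b (0.99), both much higher in the WT striatum than in the other regions. For Chrm2 they were Igsf9b (0.95) and Fut9 (0.95), for Chrm5 Ust (0.95) and Slc9a2 (0.95), and for Chrm1, which varied least between regions, Usp12 (0.86) and Chst1 (0.83).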

How the data were processed

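RNA was sequenced from TruSeq stranded mRNA libraries. The deposited values, a signal in units of normalized counts, were made by the authors from Salmon 1.1.0 estimates with GC bias correction, imported with tximport and normalized with DESeq2 on GRCm38. The submitters' processing notes give DESeq2 1.26.0 and R 3.6.2, whereas the methods of the study name later versions of both. They are not whole reads, so no count model was fitted. Columns headed KI were taken as HM, the only genotype left beside HT and WT. Of the identifiers, 18120 of 18135 matched a symbol.

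Values were transformed as log2(value + 1), and genes with a mean of at least 10 were tested in limma 3.58.1 (R 4.3.3) with an intensity trend: the 15 samples of a region for genotypes, all 45 for regions and for differences of the HM effect. P values were adjusted by Benjamini-Hochberg over all tested genes. Correlations used 100000 permutations within genotype. The test was tested on simulated data. Named are the 9 members, the genes most like Chat and each receptor, and list genes past the threshold; other list genes, promoters and motifs were chosen after values were seen. Members and lists were chosen with earlier results of these data known. Further tools were matplotlib 3.10.9, scipy 1.17.1, pandas 2.3.3 and numpy 2.4.6 under Python 3.11.15. Alternatives were no trend, quantile normalization, other filters, a pseudocount of 0.1, a fit of the 2 groups alone, a replicate block, and omission of single samples. The likeness of 1 listed marker is not reported here.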

Additional observations from a re-analysis of the deposited data

Results flagged for a closer look

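In 11 of 81 combinations of gene and group, 1 of 5 samples lay far from the other 4, with its gap to the nearest sample above 0.71 of the group's range; chance flags about 1 in 20 groups, which is 4.05 of 81. Of these, 5 are values of cortex HM replicate 2, described above: Chat (gap share 0.968), Slc5a7 (0.971), Slc18a3 (0.957), Ache (0.848) and, on the low side, Chrm3 (0.766). Another 2 are Slc18a3 in the cortex, in HT replicate 5 (19.6 normalized counts against 4.49 to 8.50 in the other HT samples, gap share 0.735) and in WT replicate 3 (14.1 against 5.58 to 7.43, 0.784). A further 3 are values near 0 in the hippocampus, Chat in HT replicate 2 (14.4 against 0.805 to 3.61, 0.793) and in HM replicate 5 (6.86 against 0 to 0.956, 0.861), and Slc18a3 in HM replicate 1 (3.21 against 0 to 0.8996, 0.72). The last is Chrm4 in hippocampus HT replicate 1, at 285 against 217 to 220.2 in the other HT samples (0.951). No member moved in opposite directions in all mutant samples of 2 regions.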

How the results depend on the processing

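The number of members called in each of the 12 limma comparisons stayed within 1.5 times its reported value under each alternative run, and was 0 in all genotype and HM-effect comparisons. Among 1980 values of single members under alternatives, 95 differed in sign from the reported value, and 2 of them lay beyond 1 SE of 0 in one of the fits, both on leaving out cortex HM replicate 2. With single samples left out, the difference of Slc18a3 between HM and WT cortex ran from -0.48 (without that library) to 0.74, and the HM effect on Chrm3 in striatum against cortex from -0.17 (without it) to 0.11, with 0 of these values called. Chrm1 between WT striatum and hippocampus was called under quantile normalization (-0.21) and Chrm5 in the same comparison was not with a pseudocount of 0.1 (-1.64). Correlations not centered on genotype passed the threshold in 7 of 18 relations rather than 0, among them Chat and Slc5a7 in the cortex, which rests on cortex HM replicate 2. Replicate numbers were not treated as pairs, since the labels give no shared mouse and not every correlation of deviations between same-numbered samples exceeded 0.1: 16 of 45 did between regions (-0.1 to 0.225), with WT 2, HT 1 and HM 1 above it in all 3 region pairs, and 7 of 45 within a region. Whether some samples share a mouse is not settled by these values. The paper counts its samples as mice per group, and its wording allows that the regions of a genotype came from the same mice. The tests between regions and of the HM effect between regions treated all samples as independent. If regions share mice, their SEs, intervals and p values do not take this into account. With the replicate block, 0 members were called in each genotype comparison and 8, 9 and 6 between regions, with Chrm1 (-0.15, adjusted p = 0.0450) added between striatum and hippocampus. The share of all genes called in that fit is not given here, so these counts are a description only. Depth is unknown, so limits of detection for Chat, Slc18a3 and Chrm5 near 0 could not be set. Leaving out cortex HM replicate 2 from the tests between regions and from the correlations was chosen after seeing the data.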
